A study of Mus musculus with 28 samples.

Results

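Motile cilia and axoneme genes were read on Affymetrix arrays in a mouse model of spontaneous lung metastasis. They were chosen by name, as every gene whose symbol starts with Cfap, Dnah, Dnaaf, Rsph or Tekt, or with Dnai and a number, plus Foxj1, Dynlrb2, Tppp3, Hydin, Ccdc39 and Ccdc40. The rule found 57 members among 18193 genes, and no measured value entered it. It and the other gene lists used below were chosen with earlier results of these data known. No symbol in the annotation of the arrays had the form of Dnai and a number. The members had 90 probe sets in all, 34 members had 1 probe set, and each member was read from its probe set with the highest mean over the 26 tissue samples. By known role, 49 members fell into lists and 8 did not.

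The study compared primary tumors (PT, n = 11), lung metastases (LungMets, n = 9), normal mammary gland (NMG, n = 3) and normal lung parenchyma (NL, n = 3) as whole tissue. PT and LungMets grew in Balb/C nude mice, which lack T cells and were female according to the methods, after 50000 JygMC(A) mouse mammary carcinoma cells were placed in the fourth mammary gland, by a route the labels call subcutaneous. PT was taken on day 30 and LungMets on day 50, and NMG and NL came from healthy mice of the same strain. The injected line was also put on arrays from culture, once as a monolayer and once as 3D spheres, with no test on these 2 samples, whose RNA was extracted with another kit than that of the tissues. The line carries a GFP and luciferase reporter according to the methods, and all tumors derive from this 1 line. The labels do not say which mouse gave which sample, and the methods describe, for material of the same study, 1 or 2 fragments per mouse. Some samples may share a mouse, and p-values measure only the spread between samples. Values are log2 array levels, and a difference of 1 is a doubling.

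A motile cilium beats because dynein motors slide the microtubule doublets of its core, the axoneme, against each other. Outer and inner dynein arms supply the force, radial spokes and the central pair shape the beat, tektins and other proteins line the doublets from within, and assembly factors build the arms in the cytoplasm. The transcription factor Foxj1 switches the program on in multiciliated cells, which line the airways of the lung and are not part of the mammary gland. Some genes with these names also work in other cells, in sperm tails or outside cilia.

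In whole tissue, fewer cells of a type and less RNA per cell cannot be told apart. The medians of the 28 arrays lay between 5.00 and 5.18. A level reference of 4.98 was set at the 95th percentile of 71 odor and pheromone receptor genes over the tissue samples. Below it a level does not show that a gene was on, and a fold against such a group rests on background signal. NL carried the markers of lung, with Scgb1a1 at 14.3 ± 0.04 and Sftpc at 14.2 ± 0.05, and NMG carried Adipoq of fat at 13.0 ± 0.16 and Krt8 of luminal epithelium at 11.2 ± 0.19 (SD, n = 3 each). Across all genes the r of PT replicate 5 was 0.989 to the LungMets mean and 0.968 to its own group's mean. For LungMets replicate 9 the r was 0.983 to the PT mean and 0.963 to its own. Genes are not independent replicates, so these r values only describe the 2 arrays. Whether these 2 labels were exchanged was not tested and cannot be told from the labels. Both samples stayed under their labels, their values are part of the PT and LungMets ranges given here, and calls that change without them are named. The 2 samples were picked out in these same data for their likeness to the other group. A fit without them therefore tends to widen LungMets against PT and is no independent support.

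NL was the group with the most members above the level reference. There 33 of 57 members had a mean above it, against 20 in LungMets, 14 in PT and 14 in NMG. In NL alone among the tissues and cell samples, 13 members were above it: Foxj1, Dnah12, Dnaaf1, Rsph4a, Hydin, Cfap54, Tekt1, Tekt2, Tekt4, Cfap45, Cfap52, Cfap161 and Cfap206. Dynlrb2, Ccdc39 and Cfap65 were above it in NL and LungMets and nowhere else. A further 11 members were above it in every group and in both cell samples, among them Cfap20, Cfap36, Cfap298, Dnaaf2 and Dnaaf5, and 20 members were above it in none. The heat map spreads the 13 members above it in NL alone over the role lists, brighter on average in NL than in LungMets.

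**Figure D1:**
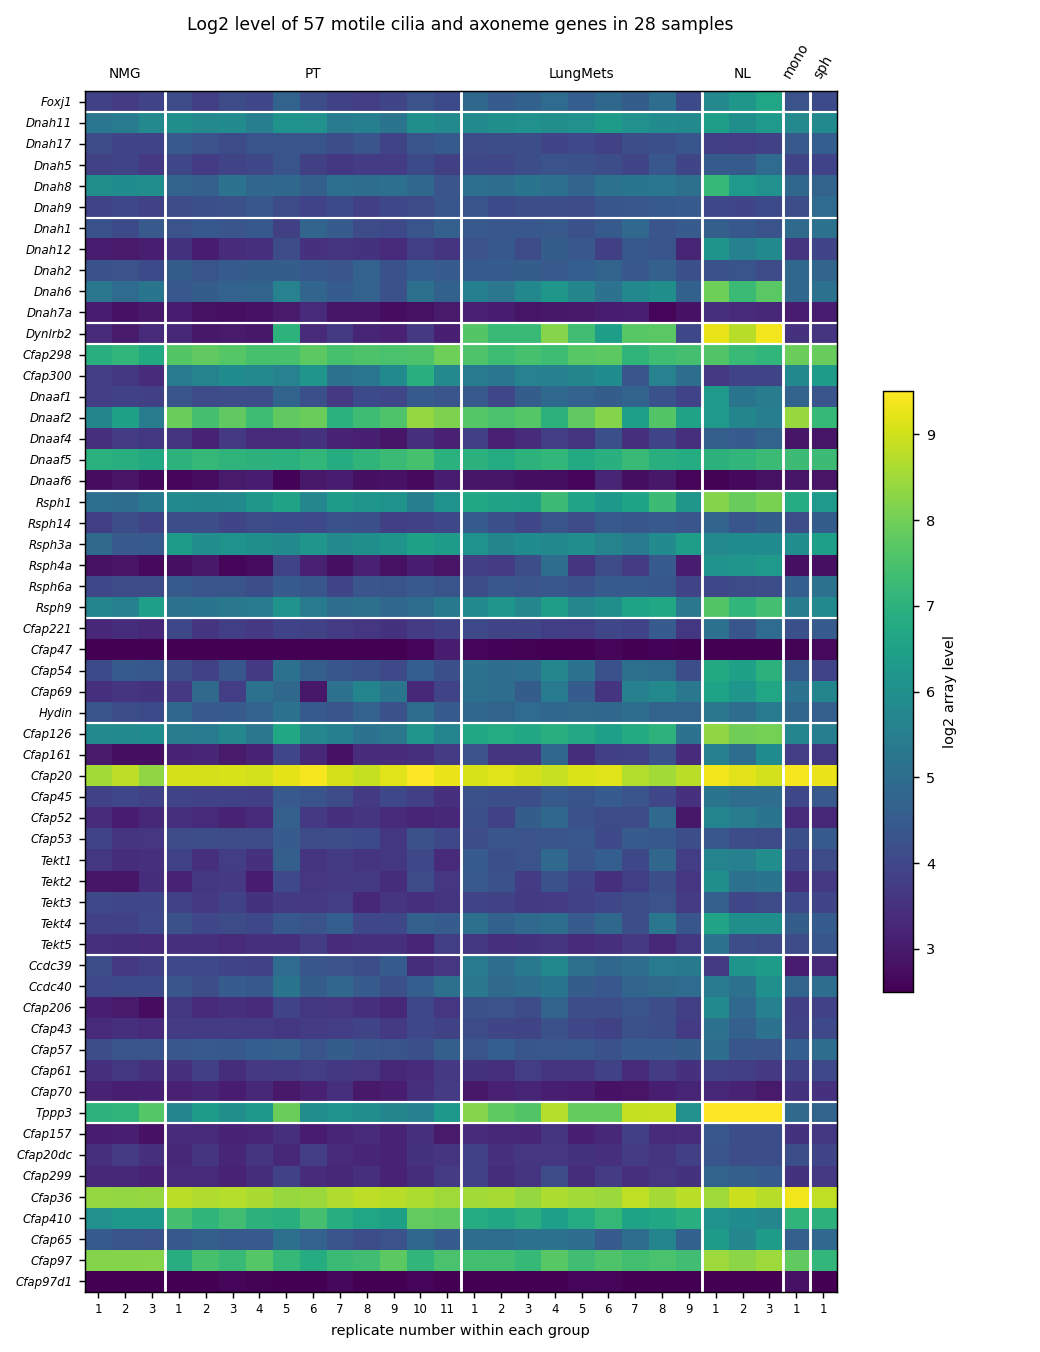
Log2 array level of each of the 57 members (rows, in role order with white lines between roles, and members without a role list last) in each of the 28 samples (columns, by group and replicate number; mono, monolayer; sph, spheres). Among the 4 tissue groups NL has the highest mean for 42 of 57 members, PT replicate 5 stands out among PT in the Dynlrb2 and Tppp3 rows, and LungMets replicate 9 is dark in the same rows.

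The order of the group means was shared by many members. In 38 of 57 members (66.7%) NL had a higher mean than LungMets and LungMets a higher mean than PT, against 27.8% of all genes. NL had the highest of the tissue means in 42 members (73.7%, all genes 28.6%), PT in 9, LungMets in 6 and NMG in 0. NMG had the lowest mean in 40 members (70.2%, all genes 29.7%). These are counts over 1 list of related genes and carry no test.

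LungMets against PT compares whole tissue of lung metastases with whole tissue of primary tumors. No label links a LungMets sample to the PT it came from. Of the 57 members, 20 were higher in LungMets and 0 were lower at a limma adjusted p under 0.05, while 9.03% of all genes were higher and 6.13% lower. The median difference of the members was 0.24 log2 units (0.239), and that of all genes was -0.02. With the arrays centred on their medians the split of the members was 17 higher and 7 lower, and with quantile normalization once more it was 17 and 3. Under centring Tekt3, Rsph14 and Cfap43 no longer passed (limma adjusted p = 0.133, 0.201 and 0.195). Centring moved the median of all genes to -0.13 and left the median of the members at 0.125. Over 2-fold were 3 members, Dynlrb2, Tppp3 and Ccdc39, where 3.1% of all genes were called over 2-fold in either direction. In both groups the means lay below the level reference for Foxj1, Dnah12, Rsph4a, Rsph14, Cfap43, Cfap52, Cfap54, Cfap161, Cfap206, Tekt1, Tekt3 and Tekt4. These are most of the 20 called members, and their differences rest on signal near background.

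Foxj1, the master regulator of motile cilia, ran from 3.78 to 4.72 in PT (median 4.06) and from 4.06 to 5.04 in LungMets (median 4.67). The groups overlapped, with PT replicate 5 as the highest PT and LungMets replicate 9 as the lowest LungMets. The difference was 0.60 (SE 0.12, limma adjusted p = 0.00189). Only 1 LungMets sample passed the level reference, and the NL samples stood at 5.80, 6.22 and 6.63.

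Dynlrb2, a light chain found with ciliary dyneins, had the widest gap of the members. In PT it ran from 2.95 to 7.03 with a median of 3.21, and in LungMets from 4.02 to 8.23 with a median of 7.34. In PT 10 of 11 samples were at background level and replicate 5 was at 7.03, while in LungMets 8 of 9 were well above the reference and replicate 9 was at 4.02. The difference was 3.47 (SE 0.46, limma adjusted p = 0.000119). Without these 2 samples it was 4.19 (SE 0.17, adjusted p = 2.3e-14), and all 8 LungMets then lay above all 10 PT. Its paralog outside the rule, Dynlrb1, a dynein light chain of cells in general, was at 10.01 ± 0.29 in PT (SD, n = 11) and 9.94 ± 0.21 in LungMets (SD, n = 9), a difference of -0.07 (adjusted p = 0.709).

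Tppp3, a tubulin-binding protein abundant in ciliated cells and also present in fibroblast-like cells, was above the reference in every tissue group. PT ran from 5.54 to 7.93 (median 5.95) and LungMets from 6.05 to 8.90 (median 7.86). The difference was 1.84 (SE 0.30, limma adjusted p = 0.000212), and 2.26 (SE 0.18) without PT replicate 5 and LungMets replicate 9. NMG, a tissue with no ciliated lining, was at 7.01, 7.06 and 7.65, so a Tppp3 signal was not particular to the lung samples.

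Among the dynein heavy chains, the motors themselves, 2 of 5 of the inner arm and 0 of 5 of the outer arm were higher in LungMets. Dnah6 of the inner arm ran from 4.23 to 5.59 in PT (median 4.69) and from 4.68 to 6.20 in LungMets (median 5.69), a difference of 0.83 (SE 0.17, adjusted p = 0.00152). Dnah12 of the inner arm rose by 0.64 (SE 0.14, adjusted p = 0.00245), with LungMets at 4.18 ± 0.42 (SD, n = 9), below the reference. The outer arm chains Dnah5, Dnah8, Dnah9, Dnah11 and Dnah17 differed by -0.15 to 0.25 and passed in no case with all samples. Dnah5 passed without PT replicate 5 and LungMets replicate 9 (0.31, adjusted p = 0.0082). For Dnah9, the heavy chain of airway cilia, the answer depended on the probe set: the one with the highest mean gave 0.17, and the other gave 0.56 (limma adjusted p = 0.000421 over all 34945 probe sets). Second probe sets of the inner arm chains Dnah1 (0.34, adjusted p = 0.02) and Dnah2 (0.47, adjusted p = 0.00338) also passed as higher, where the ones used gave 0.12 and 0.02. These 3 second probe sets had means below the reference in PT and LungMets.

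Radial spoke genes were the role list with the largest called share among those with more than 1 member. Of 6 members, 4 were higher in LungMets. Rsph4a, a head protein of the spokes, ran from 2.62 to 3.94 in PT (median 2.88) and from 3.05 to 5.00 in LungMets (median 3.84), a difference of 0.98 (SE 0.18, limma adjusted p = 0.000647). Rsph9, another head protein, rose by 0.81 (SE 0.17, adjusted p = 0.00162) and Rsph1 by 0.65 (SE 0.14, adjusted p = 0.00279). Rsph14 rose by 0.25 (adjusted p = 0.0313). Rsph3a was at -0.25 (adjusted p = 0.138) and Rsph6a, a sperm form, at 0.00 (adjusted p = 0.981).

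Of 11 tektins and other doublet lumen proteins, 6 were higher. Cfap126, also called Flattop, ran from 5.18 to 6.70 in PT (median 5.52) and from 5.18 to 7.04 in LungMets (median 6.74). The difference was 0.94 (SE 0.19, limma adjusted p = 0.00182), and 1.22 (SE 0.11) without PT replicate 5 and LungMets replicate 9, which left all LungMets above all PT. Cfap52 rose by 0.71, Tekt1 by 0.65, Cfap161 by 0.56, Tekt4 by 0.50 and Tekt3 by 0.29, all with limma adjusted p between 0.00305 (Tekt1) and 0.0299 (Tekt3). Tekt2 (0.36), Cfap45 (0.26) and Cfap53 (0.19) did not pass with all samples and passed as higher without those 2 samples (adjusted p = 0.036, 0.00374 and 0.0285). Tekt5, a sperm tektin, was at 0.02 and Cfap20 at -0.22, neither past the test. A second Cfap20 probe set, with means above the reference, passed as lower (-0.36, limma adjusted p = 0.0254 over all probe sets). The second probe set of Cfap52, below the reference in every tissue mean, did not pass (0.10, adjusted p = 0.549).

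Among 7 rulers, tethers and spoke-associated proteins, 3 were higher. Ccdc39, which with Ccdc40 forms the molecular ruler that sets the repeat of the axoneme, ran from 3.41 to 4.94 in PT (median 4.05) and from 4.85 to 5.78 in LungMets (median 5.32). Here LungMets replicate 9 was not low, at 5.34, and PT replicate 5 was the highest PT. The difference was 1.14 (SE 0.24, limma adjusted p = 0.00201). Its partner Ccdc40 was 0.32 higher and did not pass (SE 0.14, adjusted p = 0.123). Cfap206 rose by 0.64 (SE 0.11, adjusted p = 0.000487) and Cfap43 by 0.25 (adjusted p = 0.0243). A second Cfap43 probe set rose by 0.86 (adjusted p = 0.00297 over all probe sets).

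In the central pair list 1 of 5 members was higher. Cfap54 ran from 3.70 to 5.14 in PT (median 4.26) and from 4.17 to 5.74 in LungMets (median 5.07), a difference of 0.66 (SE 0.17, limma adjusted p = 0.012). A second Cfap54 probe set, below the reference in every tissue mean, gave 0.04 and did not pass (adjusted p = 0.77 over all probe sets). Hydin, the large central pair protein needed for normal ciliary motion, was at 4.62 ± 0.27 in PT and 4.85 ± 0.10 in LungMets, a difference of 0.23 that did not pass with all samples (limma adjusted p = 0.1) and passed at 0.29 without the 2 samples named above (adjusted p = 0.0198). Cfap65, in no role list, rose by 0.47 (adjusted p = 0.0112).

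Of the 7 dynein assembly factors 0 passed with all samples, 5 had a lower mean in LungMets than in PT, and the median difference was -0.13. Dnaaf2 was at -0.32 (adjusted p = 0.346), Cfap300 at -0.39 (adjusted p = 0.183) and Cfap298 at -0.18 (adjusted p = 0.185). Without PT replicate 5 and LungMets replicate 9, Dnaaf4 passed as higher (0.35, adjusted p = 0.0446), and outside the role Cfap299 passed as higher (0.27, adjusted p = 0.0314) and Cfap410 (-0.43, adjusted p = 0.0499) and Rsph3a (-0.34, adjusted p = 0.0165) passed as lower.

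**Figure D2:**
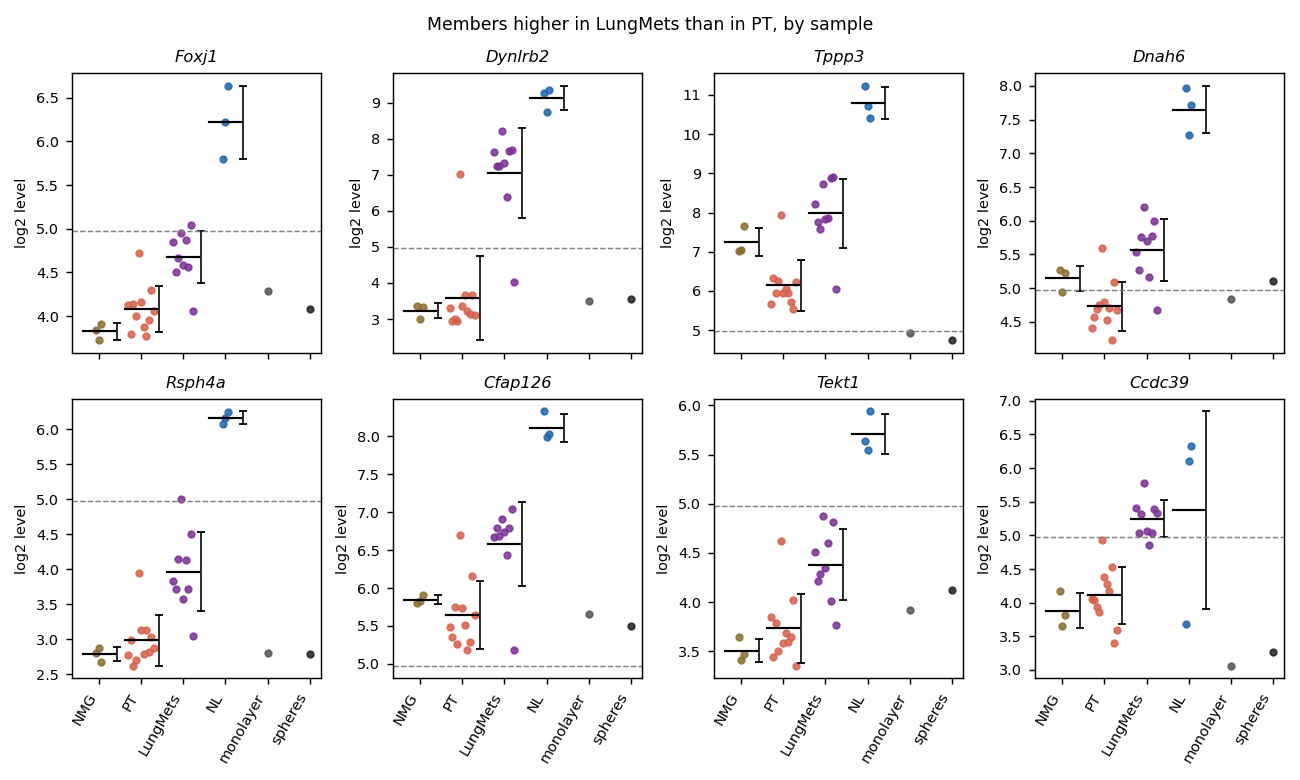
Log2 array level of 8 members called higher in LungMets than in PT, 1 point per sample, with the mean (line) and SD (bar beside it) of each tissue group of more than 1 sample; the dashed line is the level reference of 4.98, and each panel has its own scale. The LungMets points lie between PT and NL in most panels, 1 PT point (replicate 5) lies among LungMets for Dynlrb2 and Tppp3, and 1 NL point of Ccdc39 lies at 3.69.

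PT replicate 5 and LungMets replicate 9 held many of the extreme values. PT replicate 5 had the highest PT value for 15 of the 20 called members, and LungMets replicate 9 had the lowest LungMets value for 15 of 20. Over all 57 members, PT replicate 5 was above all other PT in 26 and below them in 4. LungMets replicate 9 was below all other LungMets in 22 and above them in 3. The same count over all genes was not made, and across all genes both samples lay nearer to the other group's mean. These counts therefore do not show a trait particular to the members. With both kept, 0 members had all LungMets above all PT, and so had 0.066% of all genes. Without them 11 members had (19.3%, all genes 3.11%): Foxj1, Dynlrb2, Tppp3, Dnah6, Dnah12, Rsph4a, Rsph9, Cfap126, Cfap52, Ccdc39 and Cfap206. The call then held for 27 members higher and 2 lower, and all 20 members first called were among them. Because the 2 samples were left out for their likeness to the other group, these counts are no independent support.

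The samples carry 2 label dates, with 4 PT and 4 LungMets on the first and 7 PT and 5 LungMets on the second. With label date in the model the same 20 members were higher. On the first date alone 19 members were higher, 16 of them among the 20, and on the second date alone limma called 0 members and 0 genes. The second date holds PT replicate 5 and LungMets replicate 9. There 14 members were higher and 1 lower at an unadjusted p under 0.05 (all genes 7.95% and 6.72%), and all 20 first called members had a positive difference. Without the 2 samples the second date gave 13 members higher. Dynlrb2 was 4.54 higher on the first date and 2.73 on the second. The difference between dates was itself tested as an interaction, which called 0 genes at limma adjusted p under 0.05. At an unadjusted p under 0.05 it gave 7 of 57 members. The share of all genes at that cutoff was not counted, so the 7 cannot be set against other genes.

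Genes of the ciliated cell outside the rule were counted in the same way. Of 48 further genes of the central apparatus and ciliated cell structure, 28 were higher in LungMets than in PT and 0 lower, with a median of 0.37. Ccdc153, Fam183b, 1110017D15Rik and Tmem212, all markers of ciliated cells, rose by 2.08, 1.80, 1.66 and 1.59 (limma adjusted p = 0.000478, 0.00019, 0.000512 and 0.00167). Of 10 genes of the nexin-dynein regulatory complex, which links neighbouring doublets, 3 were higher: Drc3 by 0.90, Nme5 by 0.52 and Drc1 by 0.46. The dynein intermediate chains under their older names were nearer to background, with Dnaic1 at 4.09 in PT and 4.38 in LungMets and Dnaic2 at 4.32 and 4.55. Of 15 regulators of multiciliation other than Foxj1, 2 were higher (Trp73 by 0.30 and Ccno by 0.30) and 1 was lower (E2f5, by 0.30).

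Markers of other lung cells moved with the members. Club cell genes were higher in LungMets than in PT for 5 of 8, with a median of 4.07, and their mean per sample ran from 4.16 to 8.75 in PT, 5.55 to 10.7 in LungMets and 10.9 to 11.6 in NL. Alveolar type 2 genes were higher for 7 of 7, alveolar type 1 genes for 7 of 8 and endothelial genes for 9 of 10, with medians of 4.41, 3.01 and 1.70. For club, alveolar type 1, alveolar type 2 and endothelial genes, PT replicate 5 was the highest PT and LungMets replicate 9 the lowest LungMets. Fat genes went the other way, with 4 of 6 lower in LungMets, PT replicate 5 as the lowest PT (4.51) and LungMets replicate 9 as the highest LungMets (7.04). Of 8 spermatid genes, a list that holds no tektin or other member, 0 passed. Their sample means ran from 3.67 to 4.08 in PT and 3.79 to 3.97 in LungMets, below the reference. What part normal lung in the LungMets samples had in the members' difference was not tested.

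**Figure D3:**
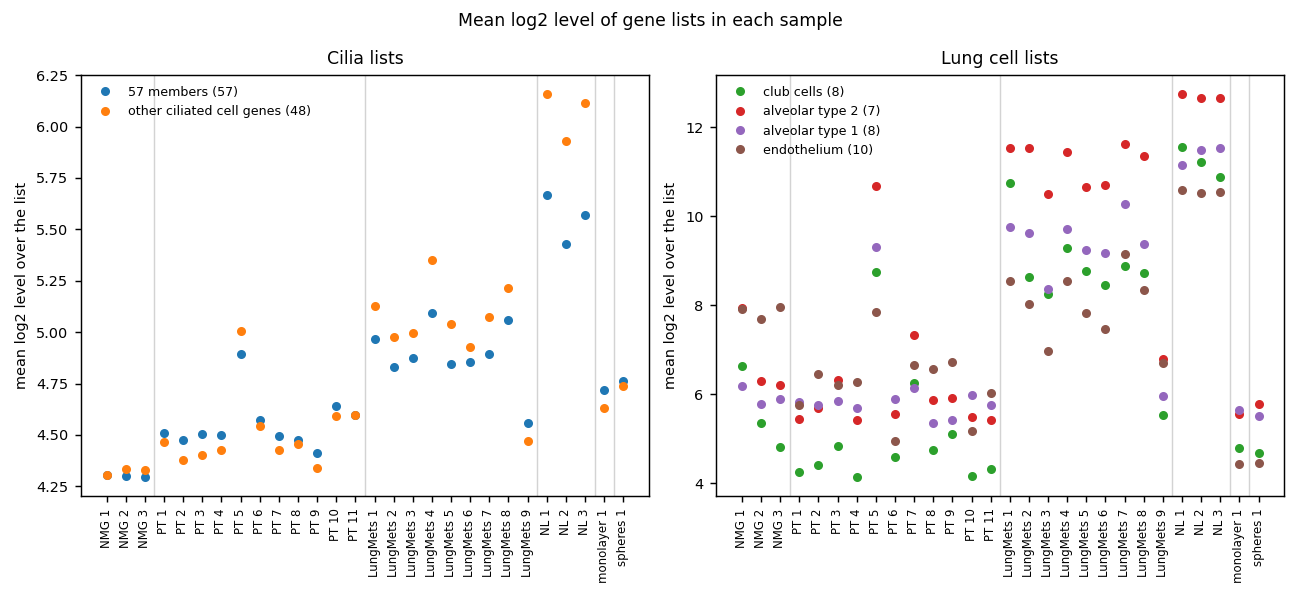
Mean log2 level over each list (number of genes in brackets) in each of the 28 samples, with the members and other ciliated cell genes on the left and 4 lists of lung cells on the right, on scales of their own. Both sides rise from PT to LungMets to NL, with PT replicate 5 at 4.89 and LungMets replicate 9 at 4.56 for the mean of the members.

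LungMets against NL sets the whole tissue of metastases beside lung of healthy mice. Here 34 members were lower in LungMets and 6 higher, against 22.4% lower and 23.8% higher over all genes, and 22 members passed over 2-fold (all genes 16.3% in either direction). The median of the members was -0.61 and of all genes 0.05. All NL samples lay above all LungMets samples in 30 members (52.6%), as they did in 17.4% of all genes. NL has a label date of its own, so date and tissue cannot be told apart in any comparison with it.

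Tppp3 fell by 2.80 against NL (SE 0.45, limma adjusted p = 1.5e-05), Rsph4a by 2.20 (SE 0.27, adjusted p = 3.9e-07), Dnah6 by 2.09 (SE 0.25, adjusted p = 3.0e-07) and Dynlrb2 by 2.07 (SE 0.69, adjusted p = 0.0159). Foxj1 fell by 1.54 (SE 0.18, adjusted p = 3.0e-07), Cfap54 by 1.78 and Dnah12 by 1.67. Members higher than PT and lower than NL thus included the regulator, a light chain, inner arm motors, spokes and doublet proteins. In the doublet list 9 of 11 were lower, in the central pair list 4 of 5, in the spoke list 3 of 6 and among the rulers and tethers 3 of 7. The lung cell lists gave medians of -2.24 for club cells, -2.13 and -2.49 for alveolar type 2 and type 1 cells, and -2.63 for endothelium. Lower past the test were 5 of 8, 3 of 7, 6 of 8 and 10 of 10 of these genes, in that order.

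Ccdc39 was an exception, at -0.13 against NL (SE 0.35, adjusted p = 0.792). Its NL samples were at 3.69, 6.11 and 6.33, so 1 of 3 lay below all LungMets samples and the NL mean of 5.38 rests on samples that disagree. The other 2 Ccdc39 probe sets were between 2.52 and 3.07 in every tissue mean, far below the reference, and gave no second reading. Ccdc40 was lower than in NL by 0.61 (SE 0.20, adjusted p = 0.0156).

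The 6 members higher in LungMets than in NL were Cfap300, Dnaaf2, Cfap410, Dnah17, Dnah9 and Dnah2. Cfap300, an assembly factor of dynein arms, was at 3.67, 3.90 and 3.94 in NL and ran from 4.34 to 5.92 in LungMets, a difference of 1.55 (SE 0.28, adjusted p = 7.3e-05). Dnaaf2, a cochaperone that folds dynein heavy chains, was 1.54 higher (SE 0.31, adjusted p = 0.000271) and Cfap410 0.87 higher (SE 0.21, adjusted p = 0.00132). All LungMets lay above all NL in 4 members (7.02%, all genes 16.7%): Cfap300, Dnaaf2, Cfap410 and Dnah9. Without PT replicate 5 and LungMets replicate 9 the calls of Dnah9 (0.25, adjusted p = 0.0621) and Tekt3 (-0.31, adjusted p = 0.067) were lost and Rsph6a passed as higher (0.28, adjusted p = 0.0151). Dnah17, Dnah9 and Dnah2 were higher by 0.31, 0.28 and 0.27 with means below the reference in both groups. For Dnah9 and Dnah2 the other probe set went the opposite way, by -0.96 and -0.85 (adjusted p = 6.3e-06 and 5.8e-05 over all probe sets), with NL means of 5.08 and 5.13, above the reference, and their direction against NL is therefore not settled. The fall of Cfap97 against NL (-0.99) was not seen in its other probe sets (0.12, adjusted p = 0.748, and 0.31, adjusted p = 0.0438). Other probe sets of Cfap57 (-1.07), Dnah1 (-0.71) and Cfap70 (-0.71) were lower in LungMets too, where the probe set used gave -0.15, 0.02 and -0.11 and did not pass. For Dnaaf4 and Dnah8 the probe sets used gave -0.97 and -1.42. Their second probe sets, with means below the reference, were higher in LungMets, by 0.24 (adjusted p = 0.0351) and 0.21 (adjusted p = 0.0148).

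**Figure D4:**
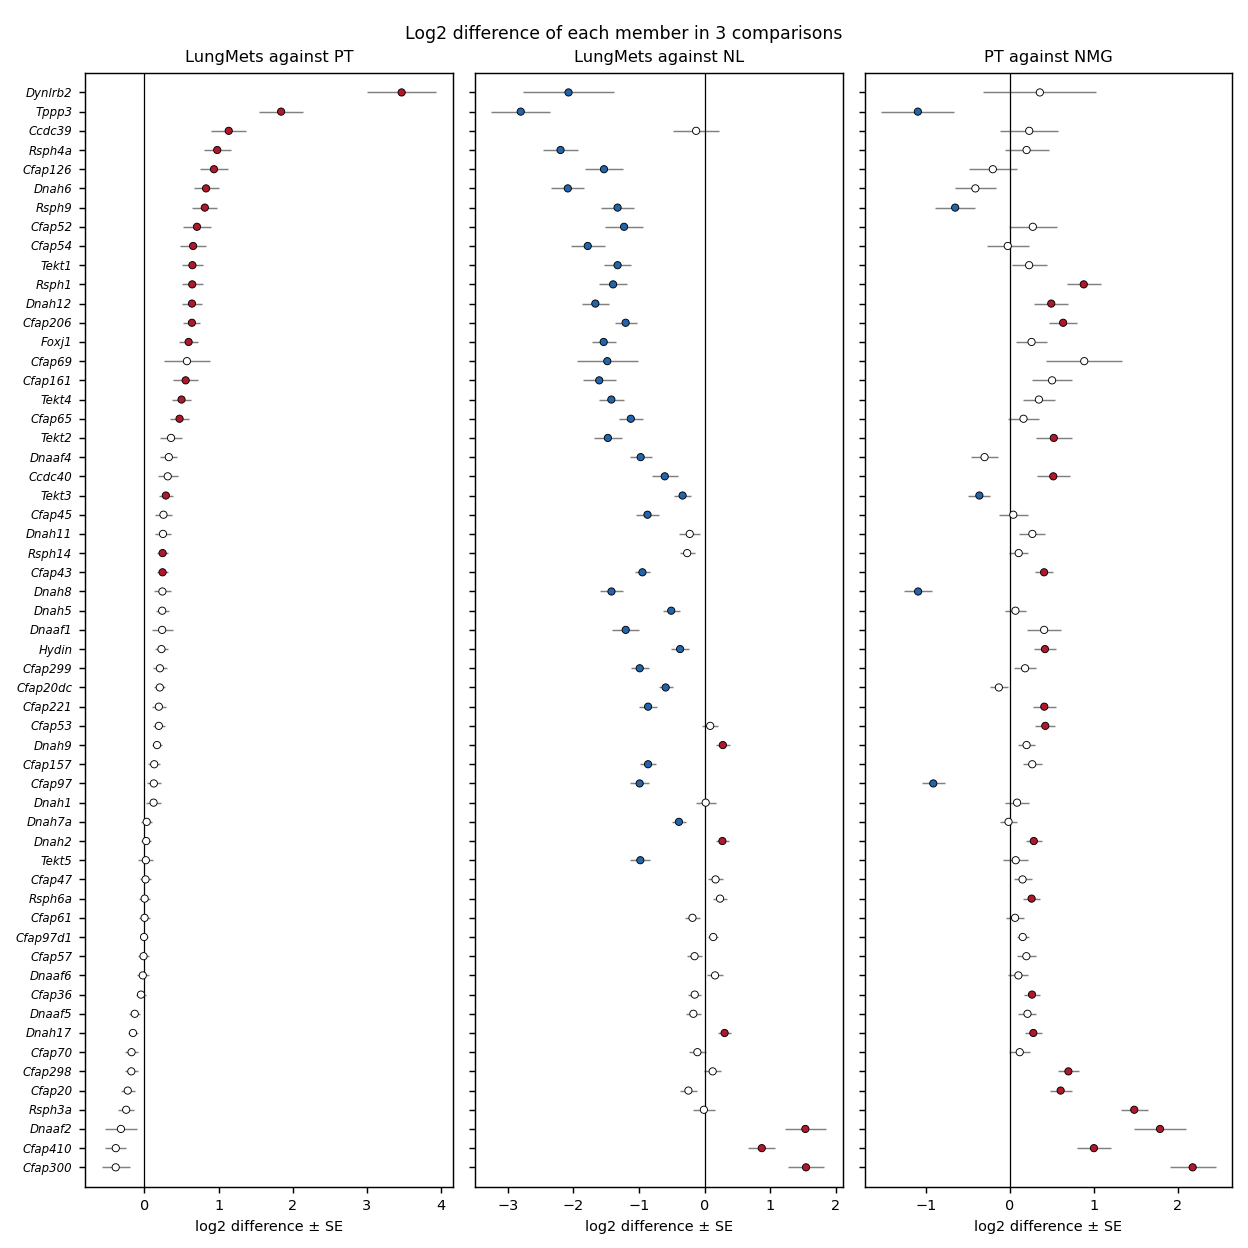
Log2 difference ± SE of each of the 57 members in 3 comparisons from the limma fit, in the order of LungMets against PT; red points were called higher, blue points lower, at adjusted p under 0.05, and open points were not called. LungMets against PT and LungMets against NL share the LungMets samples, and LungMets against PT and PT against NMG share the PT samples; 20, 40 and 24 members are coloured.

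PT against NMG compares the tumors with the gland of healthy mice. In PT 19 members were higher and 5 lower, against 26.7% and 21% of all genes, and 5 members passed over 2-fold (all genes 17.2%). The median was 0.23 for the members and 0.09 for all genes. With the arrays centred on their medians the split was 31 higher and 2 lower, and the median of all genes was then 0.249. Without NMG replicate 3 the calls fell from 24 to 13. NMG has a label date of its own, which cannot be told apart from the tissue.

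The 2 largest rises were of assembly factors, Cfap300 and Dnaaf2. Cfap300 was at 3.38, 3.64 and 3.76 in NMG and ran from 5.14 to 6.94 in PT, a difference of 2.18 (SE 0.27, limma adjusted p = 4.9e-07) with no overlap. Dnaaf2 was at 5.47, 5.72 and 6.52 in NMG and ran from 6.98 to 8.404 in PT, a difference of 1.79 (SE 0.31, adjusted p = 3.4e-05). Cfap298, a further assembly factor, rose by 0.69 (SE 0.13, adjusted p = 6.5e-05), so that 3 of 7 assembly factors were higher. All 3 were above the level reference in the monolayer and the spheres as well, Cfap300 at 5.78 and 6.36, Dnaaf2 at 8.43 and 7.18, and Cfap298 at 7.92 and 7.87. The tumor cell line grown alone thus gave signal for these members, at levels near those of PT, from 1 array each and with no test.

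Rsph3a, a spoke protein that also binds signaling kinases, was at 4.46, 4.49 and 4.93 in NMG and ran from 5.79 to 6.52 in PT (1.48, SE 0.16, adjusted p = 3.9e-08). Cfap410 rose by 1.00 (SE 0.20, adjusted p = 0.000256), Rsph1 by 0.88 (SE 0.20, adjusted p = 0.000969) and Cfap20, a doublet protein present in most cells, by 0.60 (SE 0.13, adjusted p = 0.000532). All PT samples lay above all NMG samples in 12 members (21.1%, all genes 18.3%): Cfap300, Dnaaf2, Cfap298, Rsph3a, Cfap410, Rsph1, Cfap20, Ccdc40, Cfap206, Cfap221, Cfap36 and Cfap43. All PT lay below all NMG in 3 (5.26%, all genes 16%): Dnah8, Cfap97 and Tekt3. Without PT replicate 5 and LungMets replicate 9 Tekt2 no longer passed as higher (adjusted p = 0.0618) and Dnah6 passed as lower (-0.50, adjusted p = 0.0276).

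Lower in PT than in NMG were Tppp3 by 1.10 (SE 0.44, adjusted p = 0.0405), Dnah8 by 1.10 (SE 0.16, adjusted p = 6.1e-06), Cfap97 by 0.92 (SE 0.14, adjusted p = 7.8e-06), Rsph9 by 0.65 (SE 0.24, adjusted p = 0.0279) and Tekt3 by 0.37 (SE 0.13, adjusted p = 0.0231). Dnah8, an outer arm chain best known from sperm, was at 5.90, 5.93 and 5.97 in NMG and ran from 4.35 to 5.16 in PT. A second Dnah8 probe set lay between 3.08 and 3.43 in all tissue means, below the reference, and was 0.35 higher in PT (adjusted p = 0.000142 over all probe sets). Both other Cfap97 probe sets were higher in PT, by 0.43 with means above the reference (adjusted p = 0.194) and by 0.35 with means below it (adjusted p = 0.0202), so the direction of Cfap97 depends on the probe set. So did that of Dnah2, called 0.28 higher in PT, with its other probe set at -0.54 (adjusted p = 0.00417). Foxj1 (0.26, adjusted p = 0.254) and Dynlrb2 (0.35, adjusted p = 0.695) did not pass between PT and NMG, and both groups lay below the reference apart from Dynlrb2 in PT replicate 5. Fat genes were far higher in NMG, all 6 of 6 past the test, and what part the makeup of the gland had in these falls was not tested.

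**Figure D5:**
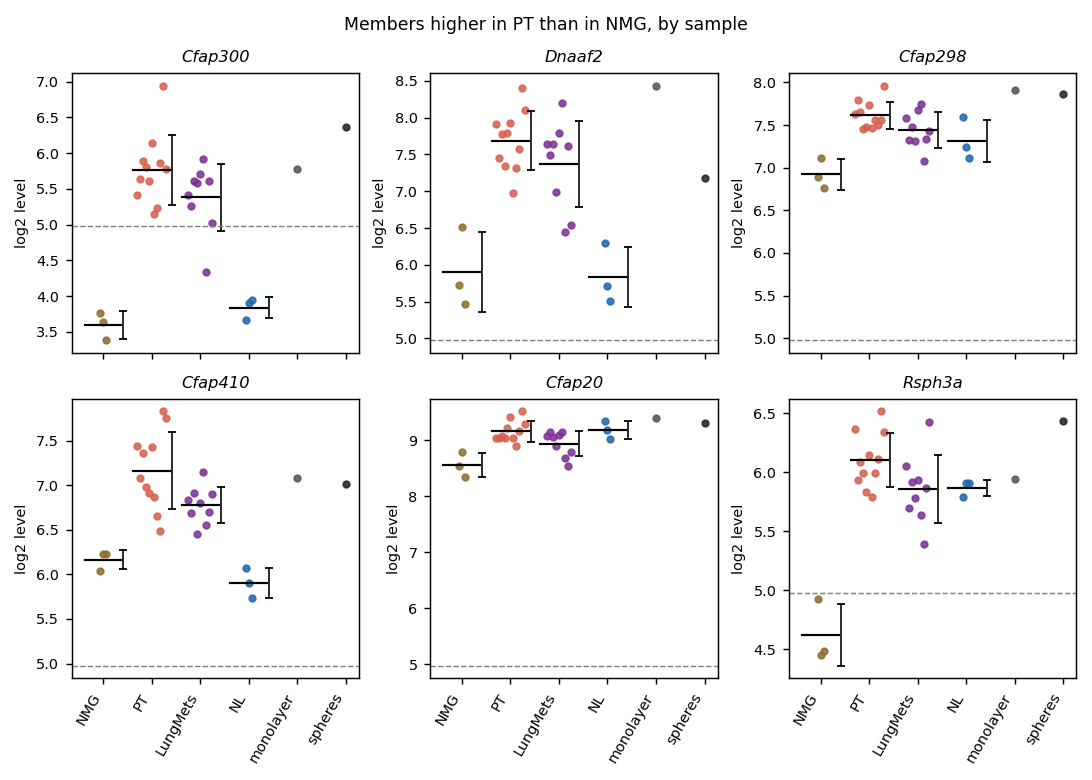
Log2 array level of 6 members called higher in PT than in NMG, 1 point per sample, with the mean (line) and SD (bar) of each tissue group of more than 1 sample; the dashed line is the level reference of 4.98, and each panel has its own scale. Cfap300 lies below the reference in NMG and NL and mostly above it in PT, LungMets and both cell samples.

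LungMets against NMG had 33 members higher and 2 lower, against 23.1% and 17.9% of all genes, with 11 members over 2-fold (all genes 13.3%) and a median of 0.52 beside 0.10 for all genes. Dynlrb2 was 3.82 higher (SE 0.69, limma adjusted p = 9.5e-05), Cfap300 1.79, Rsph1 1.52, Ccdc39 1.37 and Foxj1 0.85. Dnah8 (-0.85) and Cfap97 (-0.79) were lower by the probe sets used, while their other probe sets were between 0.20 and 0.28 higher, past the test for Dnah8 alone (adjusted p = 0.00214, with means below the reference). Tppp3 was 0.74 higher and did not pass with all samples (adjusted p = 0.19), while without PT replicate 5 and LungMets replicate 9 it was 0.98 higher and passed (SE 0.26, adjusted p = 0.00402). Without them Cfap45, Cfap54, Dnah5, Dnah6 and Rsph6a passed as higher too (adjusted p from 0.00837 for Cfap54 to 0.0281 for Dnah6).

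NL against NMG shows which members a normal lung holds above a tissue without motile cilia. Here 39 members were higher and 0 lower, against 14.3% and 14.5% of all genes, and 29 members passed over 2-fold (all genes 15%). The median of the members was 1.02 and that of all genes -0.01. Dynlrb2 was 5.90 higher (SE 0.84, limma adjusted p = 6.0e-06), Tppp3 3.55, Rsph4a 3.38 (SE 0.33, adjusted p = 1.8e-08), Rsph1 2.92, Dnah12 2.80 and Foxj1 2.39 (SE 0.23, adjusted p = 1.1e-08). The doublet list was higher for 10 of 11, the spokes for 5 of 6 and the central pair for 4 of 5, while 2 of 7 assembly factors were higher, Dnaaf1 by 1.85 and Dnaaf4 by 1.00. Second probe sets of Dnaaf1 (0.05, limma adjusted p = 0.915 over all probe sets) and Dnaaf4 (-0.11, adjusted p = 0.559) did not pass, with means below the reference. The 5 assembly factors not called between the normal tissues were Cfap298, Cfap300, Dnaaf2, Dnaaf5 and Dnaaf6. NMG replicate 1 had the highest NMG mean of the club cell list (6.63 beside 4.82 and 5.37) and of both alveolar lists, but not of endothelium, while the mean of the members was 4.30 or 4.31 in all NMG samples.

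In the cell line samples 14 members were above the reference in the monolayer and 19 in the spheres. Cfap20 (9.40 and 9.31), Cfap36 (9.35 and 8.84), Cfap298, Cfap97 (7.80 and 7.13), Dnaaf2 and Dnaaf5 (7.29 in both) were among the members with signal in both cultures. Foxj1 (4.29 in the monolayer and 4.08 in the spheres), Dynlrb2 (3.50 and 3.55), Rsph4a (2.80 and 2.79), Dnah12 (3.58 and 3.96), Ccdc39 (3.06 and 3.27) and Tppp3 (4.92 and 4.74) were below the reference in both. Other members that were higher in LungMets than in PT were above the reference in both cultures, namely Cfap126 (5.65 and 5.51), Rsph9 (5.44 and 5.81) and Rsph1 (6.85 and 6.25). Cfap57, Dnah1 and Rsph6a passed the reference in the spheres and in no other group, at 5.00, 5.12 and 5.12. Cfap69 passed it in both cultures, at 5.16 and 5.72, as it did in NL and LungMets. With 1 array each, the difference between monolayer and spheres has no error.

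The promoters of the members were read for the letters of 2 known binding motifs. RFX factors, partners of Foxj1 in ciliated cells, bind the X-box, made of inverted half-sites with a short gap, and Foxj1 belongs to the forkhead family. RefSeq windows on GRCm38.p6, from 250 bases before to 50 bases after each start, were found for 46 of 57 members. Those not matched were Cfap157, Cfap299, Cfap53, Cfap54, Cfap65, Cfap97, Dnaaf1, Foxj1, Rsph1, Rsph4a and Tppp3. The half-site was searched as GTTGCC or its reverse complement GGCAAC, the pair as GTTNCC, a gap of 0 to 3 bases and GGNAAC, and the forkhead motif as TGTTTA or TAAACA. A pair can contain the plain half-site, and the forkhead letters contain none.

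The half-site stood in the windows of 15 of 46 members (32.6%) and of 14.1% of 27025 genes. The pair stood in 3 members, Cfap298, Cfap20dc and Dnaaf6 (6.52%, all genes 0.936%), and the forkhead letters in 12 (26.1%, all genes 15.1%). Of the 14 members with a window that were higher in LungMets than in PT, 4 had the half-site (Dynlrb2, Tekt1, Tekt4 and Cfap161), 3 the forkhead letters and 0 the pair as searched. In Dynlrb2 the half-site is followed, after a gap of 1 base, by agcaac, which differs from GGCAAC in 1 letter and was not counted. Looser forms of the pair were not searched. A match describes letters in a window and is not a site shown to be bound, and no match says only that these letters are not in that window. The stretches below, 5′ to 3′ along the gene and ending 1 base before its start, show the half-sites of 3 members that rose from PT to LungMets, and then the pairs of 2 members that did not. Capitals mark the half-sites and, in a pair, the gap between them.

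Dynlrb2, chr8:116504895-116505014, plus strand: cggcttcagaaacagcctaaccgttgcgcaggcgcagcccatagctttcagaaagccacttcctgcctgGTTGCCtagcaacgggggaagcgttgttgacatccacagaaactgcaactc

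Cfap161, chr7:83794840-83794959, minus strand: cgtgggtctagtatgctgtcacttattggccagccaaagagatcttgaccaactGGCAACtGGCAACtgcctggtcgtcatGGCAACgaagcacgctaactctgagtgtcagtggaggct

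Tekt1, chr11:72361883-72362002, minus strand: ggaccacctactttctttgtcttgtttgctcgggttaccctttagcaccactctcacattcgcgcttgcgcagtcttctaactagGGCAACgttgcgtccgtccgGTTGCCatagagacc

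Cfap298, chr16:90934850-90935049, minus strand: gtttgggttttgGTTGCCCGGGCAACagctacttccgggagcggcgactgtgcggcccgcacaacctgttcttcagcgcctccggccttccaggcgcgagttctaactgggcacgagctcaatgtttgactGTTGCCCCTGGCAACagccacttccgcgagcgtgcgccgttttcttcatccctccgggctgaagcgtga

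Cfap20dc, chr14:8666291-8666410, minus strand: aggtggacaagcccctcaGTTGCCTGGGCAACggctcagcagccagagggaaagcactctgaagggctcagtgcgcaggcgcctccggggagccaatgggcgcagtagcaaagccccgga

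Counted from the start, with bases before it negative, the half-site began at -51 in Dynlrb2, at -66, -59 and -39 in Cfap161, and at -35 and -15 in Tekt1. The pairs of Cfap298 began at -188 and -69, and the pair of Cfap20dc at -102. Cfap298 was above the reference in every group and both cultures, Cfap20dc in none, and Dynlrb2 in NL and LungMets, so members with the letters did not share 1 pattern of levels.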

How the data were processed

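RNA of 28 samples was measured on Affymetrix arrays. The deposited values are log2 levels per probe set, for which the submitters' processing notes name RMA and Partek. RMA subtracts background, makes the arrays' distributions alike and joins the probes of a set, which compresses differences at low signal. Of 45101 probe sets, 34945 with 1 gene symbol in the platform annotation were used and stood for 18193 genes. Each gene was read from the probe set with the highest mean over the 26 tissue samples. All 57 members matched RefSeq by gene identifier with the same symbol. A further 3 probe sets that list a member with other genes were not used.

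Groups came from the sample labels. One mean per group was fitted to the 26 tissue samples with limma 3.58.1 (lmFit, eBayes) in R 4.3.3, with two-sided tests and Benjamini-Hochberg adjustment over all genes at 0.05 and no filter. Simulated data had independent normal noise and 66 or 67 of 18193 genes shifted by each amount. There the LungMets against PT test found 59.7% of genes shifted by 0.5, 88.1% at 1 and 100% at 2 log2 units. PT against NMG found 26.9%, 80.6% and 95.5%. Far more genes were called in the real data, so these rates need not hold there. Array number limits the precision, with 3 NMG and 3 NL. Members were named by a rule: the 6 single genes, the largest changes called in each comparison, up to 4 called per role, and the 6 highest in the monolayer. Members given beyond it were chosen after their values were seen. The members and lists were chosen with earlier results of these data known. Alternatives were other joining of probe sets, centring, quantile normalization, a level filter, a fold rule, ordinary analysis of variance, array weights, 2-group fits, a replicate block, label date and left-out samples. Files were read with jsonlite 2.0.0 and pandas, and plots were made with Python and matplotlib.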

Additional observations from a re-analysis of the deposited data

Results flagged for a closer look

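In groups of 4 to 10 samples, here LungMets, the gap of the lowest or highest sample to its nearest neighbour was divided by the group's range. A sample was flagged where this ratio exceeded Dixon's 95% critical value. Of 33 named members 4 had a flagged sample, where chance gives about 1 in 20 for independent tests. The members were read on the same samples and most flags fell on 1 of them, so that rate is no measure of chance here. LungMets replicate 9 lay apart as the lowest value for Dynlrb2 (4.02), Tppp3 (6.05) and Cfap126 (5.18). The same sample had the lowest LungMets mean of the club cell, alveolar and endothelial lists. LungMets replicate 5 lay apart as the lowest value for Dnah8 (4.77).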

How the results depend on the processing

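The counts of called members, 20 in LungMets against PT, 40 in LungMets against NL, 24 in PT against NMG, 35 in LungMets against NMG and 39 in NL against NMG, stayed within 1.5 times under the mean of probe sets, centring, quantile normalization once more, ordinary analysis of variance, array weights and 2-group fits. So did the first with label date as a covariate, which could not be fitted for NL or NMG. The counts also did so without PT replicate 5 and LungMets replicate 9 (29, 39, 24 and 41 in the first 4). With genes above the median mean only, where 10 members were tested, they were 3, 6, 8, 7 and 5. The fold rule gave 3, 22, 5 and 11 in the first 4 comparisons and 29 in the last. Label date 2 alone gave 0 in LungMets against PT (limma, with 14 higher and 1 lower at an unadjusted p under 0.05), and 13 without PT replicate 5 and LungMets replicate 9, an alternative chosen after seeing the data. Leaving out 1 sample at a time gave 16 to 25, 33 to 40, 13 (without NMG replicate 3) to 23, 25 to 40 and 36 to 39. Of 2476 values of named members under the alternatives 2227 kept their call, 246 lost it and 3 reversed, all with the mean of probe sets: Dnah9 (-0.34) and Dnah2 (-0.29) against NL and Dnah2 in PT against NMG (-0.13). Equal replicate numbers gave no clear pairing of the samples, with correlations of deviations from -0.308 to 0.481 over all comparisons. In LungMets against PT they ran from -0.233 to 0.481, with 1 of 9 LungMets closest to the PT of its number. This check cannot show that samples of equal number came from different mice. The replicate block gave 18, 38, 19, 33 and 40. Signal over background limits the reading of the 20 members that were above the level reference in no group. It also limits members called in LungMets against PT with both of those means below the reference, Foxj1 among them.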

Other observations

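Intraflagellar transport carries cargo along cilia, motile or not. Of 30 such genes 2 were higher and 5 lower in LungMets than in PT, with a median of -0.13 (all genes -0.02). Ift43 was higher by 0.28 (limma adjusted p = 0.0132), and Ttc26, Ift57 and Ift80 were lower by 0.46, 0.45 and 0.29 (adjusted p = 0.021, 0.000693 and 0.0364). Their sample means ran from 6.95 to 7.33 in PT, 6.91 to 7.14 in LungMets and 7.14 to 7.25 in NL, and were 7.18 in the monolayer and 7.27 in the spheres. In PT against NMG 14 of the 30 were higher and 3 lower, where 26.7% and 21% of all genes were.

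Tppp, the brain-type relative of Tppp3, had means of 3.16 ± 0.52 (PT, n = 11), 4.26 ± 0.54 (LungMets, n = 9), 5.47 ± 0.63 (NMG, n = 3) and 6.61 ± 0.22 (NL, n = 3), with SD. It was higher in LungMets than in PT by 1.10 (SE 0.22, limma adjusted p = 0.00145), with both means below the level reference.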
